A study of Mus musculus with 117 samples.

Results

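Nnt, Glo1, Alad and Ide are 4 mouse genes known to differ in copy or to carry a deletion between inbred strains, and their chromatin states in hepatocytes are described here. The genes were chosen by name from that prior knowledge, but with earlier results of these data known. Each was taken over its GRCm38 span with 5 kb added to each side. They are 4 of the 21631 genes annotated as coding for proteins on the autosomes and chromosome X, and their padded spans hold 1072 of 13168874 bins of 200 bp. Nnt encodes the mitochondrial enzyme that passes electrons from NADH to NADP and so supplies NADPH. Glo1 encodes glyoxalase 1, which clears the reactive by-product methylglyoxal, Alad encodes the enzyme that joins aminolevulinate molecules on the way to haem, and Ide encodes the insulin-degrading enzyme.

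The study recorded histone marks by ChIP-seq, which sequences DNA bound to a marked histone, in hepatocytes from female mice 12 weeks old. It used 9 inbred strains: the classical strains 129S1/SvImJ, A/J, C57BL/6J, DBA/2J, NOD/ShiLtJ and NZO/HlLtJ, and the wild-derived strains CAST/EiJ, PWK/PhJ and WSB/EiJ. Each strain had 13 libraries, 3 for each of 4 marks (H3K4me1, H3K4me3, H3K27ac and H3K27me3) and 1 input, and no treatment is named. The deposited data combine them into 1 map per strain, which gives each bin 1 of 14 chromatin states, so there is no value per mouse and an SD below is always over the 9 strains.

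As background, C57BL/6J mice lack part of Nnt, which removes several inner exons and the working protein. A tandem duplication that holds Glo1 and at least part of its neighbour Dnah8 is known in A/J and DBA/2J, and DBA/2J is known for a duplicated Alad. The ends of the Glo1 duplication are not given in the sources used here. The further neighbours of Glo1 on either side are therefore not taken as lying outside it. A duplication with Ide is known from some C57BL/6J colonies. The labels give no copy number and the maps hold no read depth, so no strain was called a carrier from these data. The reference assembly is that of C57BL/6J, so sequence that only the other strains hold has no bin. Reads from all copies of a duplicated gene fall on 1 place in such a reference, so more copies and a different state of each copy cannot be told apart.

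A chromatin state is a number for a recurring combination of marks. The mark content of the 14 states is not given in the sources used here, and the numbers serve as names. Where a state lies gives some orientation. State 3 covered 0.389% of all bins but 38.2% ± 1.14 of the bins with a gene start (SD, n = 9 strains), and state 1 covered 16.3% ± 1.28 of bins 2 kb inside the genes. State 8 was 23.4 times as frequent 2 kb inside genes as in the genome, and state 9 was 21.3 times as frequent 2 kb inside and 21.4 times 2 kb outside. State 14 covered 72.3% ± 1.26 of all bins and is the state of most of the genome. The share of bins outside state 14 is called the marked share below. Over the genome A/J had the highest, 29.3%, and DBA/2J the lowest, 26.0%, with C57BL/6J at 26.3%. The cell label was checked at marker genes. State 3 lay at a gene end in all 9 strains for 7 of 8 hepatocyte markers. The same held for 0 of 5 Kupffer cell, 0 of 5 endothelial and 1 of 5 stellate markers. It also held for 0 of 4 bile duct and 1 of 4 leukocyte markers. State 3 was absent there in every strain for 0 hepatocyte, 3 Kupffer cell, 1 endothelial, 4 stellate, 3 bile duct and 2 leukocyte markers. The rest had it in part of the strains, among them the macrophage gene Cd68 in 8. The endothelial genes Clec4g, Pecam1 and Stab2 had it in 6, 5 and 4.

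The sequences at listed starts of 3 of the genes are shown. They are RefSeq sequences of build GRCm38.p6, each with 250 bases before and 50 after a listed start, read 5′ to 3′ on the minus strand. Capitals mark CG dinucleotides, which 94.6% of the 32851 listed starts hold at least once in a window of this length, with a median of 7. Glo1 (chr17:30612610-30612909) has 11 and the second of the listed Alad starts (chr4:62519860-62520159) has 33, a number reached by 8.56% of starts. The other listed Alad start (chr4:62520014-62520313), whose sequence is not printed, has 19, reached by 28.1% of starts. Ide (chr19:37334495-37334794) has 0. In all 9 strains the printed starts of Glo1 and Alad lay in state 3 and that of Ide in state 14. Nnt is named only.
Glo1: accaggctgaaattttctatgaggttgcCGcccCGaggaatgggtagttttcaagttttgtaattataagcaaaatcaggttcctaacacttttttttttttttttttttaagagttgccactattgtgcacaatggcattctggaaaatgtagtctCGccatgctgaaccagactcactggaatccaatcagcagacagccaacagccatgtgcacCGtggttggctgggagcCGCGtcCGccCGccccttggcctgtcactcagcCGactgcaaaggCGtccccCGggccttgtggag
Alad: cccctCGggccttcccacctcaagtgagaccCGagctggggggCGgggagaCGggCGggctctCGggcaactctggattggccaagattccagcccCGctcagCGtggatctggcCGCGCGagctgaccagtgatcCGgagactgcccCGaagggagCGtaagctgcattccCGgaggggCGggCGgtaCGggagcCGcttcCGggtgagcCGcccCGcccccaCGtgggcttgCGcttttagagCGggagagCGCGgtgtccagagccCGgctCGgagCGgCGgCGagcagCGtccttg
Ide: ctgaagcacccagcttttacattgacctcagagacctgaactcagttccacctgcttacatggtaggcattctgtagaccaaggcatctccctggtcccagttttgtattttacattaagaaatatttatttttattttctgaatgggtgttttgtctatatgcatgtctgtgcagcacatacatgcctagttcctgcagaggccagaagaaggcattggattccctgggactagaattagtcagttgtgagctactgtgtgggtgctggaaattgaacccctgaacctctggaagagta

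The 4 genes fell into a pair with strain-variable maps and a pair with stable ones. Variation was measured as pairwise disagreement, the percentage of bins whose state differs between both strains of a pair, averaged over the 36 pairs. It was 35.6% at Glo1 (SD of the strain means 3.92, n = 9 strains) and 31.0% at Alad (SD 3.43), against a median of 20% over all protein-coding genes. It was 11.4% at Nnt (SD 1.07) and 7.22% at Ide (SD 1.02). Glo1 and Alad were at least 1.5 times the median, as were 21.8% of all genes. Nnt and Ide were at or below the median divided by 1.5, as were 30.0% of all genes. Thus neither pair lies outside a range that many genes share: 89.0% of genes had less disagreement than Glo1, 80.5% less than Alad, 24.3% less than Nnt and 13.8% less than Ide.

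The order changed where state 14 was set aside. In bins outside state 14 in at least 1 strain, disagreement was 37.9% at Nnt, 38.2% at Glo1, 31.0% at Alad and 34.7% at Ide, beside a gene median of 34.9%, so Nnt and Ide were above Alad. By the same factor of 1.5, 0 of the 4 genes were high on this measure, as were 1.48% of all genes, and 0 were low, as were 11.7%. All 9 strains had the same state in 76.4% of the bins of Nnt, 31.3% at Glo1, 35.2% at Alad and 81.8% at Ide, with a gene median of 51.3%. The mean marked share was 22.8% ± 2.11 at Nnt, 77.6% ± 10.4 at Glo1, 100% ± 0 at Alad and 10.3% ± 2.27 at Ide (SD, n = 9), and the gene median was 37.4%. With 20 kb of padding, disagreement was 20.5% at Alad and 13.9% at Ide, and the marked share was 59.9% and 19.7%.

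The genes also differed from their surroundings, taken as 100 kb beyond the padding on each side in the same strain. Glo1 was more marked than its flanks by 37.6 percentage points (SD 6.62) and Alad by 81.4 points (SD 1.51), in 9 of 9 strains each; 37.9% of all genes were higher than their flanks in all 9 strains. Ide was less marked than its flanks in 9 of 9 strains, with a difference of -32.1 points (SD 2.47); 21.3% of all genes were lower in all 9 strains. With flanks of 50 kb the Glo1 difference was 8.67 points (SD 8.88, exact permutation p = 0.023). Each of the differences with 100 kb flanks had p = 0.0039, the smallest p the design allows, when the signs of the 9 strain values were flipped in every combination (exact permutation test, two-sided), and p = 0.0066 after Benjamini-Hochberg adjustment over all 21631 genes. Nnt differed from its flanks by -5.05 points (SD 7.01, exact permutation p = 0.074, adjusted 0.094), and 2 of 9 strains went the other way. The sign for Nnt turned with states 13 and 14 merged (6.95 points, exact permutation p = 0.0039) and with flanks of 200 kb (5.47 points, exact permutation p = 0.0078), and without PWK/PhJ the difference was -6.36 points (exact permutation p = 0.023).

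In no gene was a strain with a known copy change the one farthest from the others. At Nnt that strain was NOD/ShiLtJ, with a mean disagreement of 13.1% with the others, while C57BL/6J, at 11.9%, ranked after CAST/EiJ at 12.3%. At Glo1 it was WSB/EiJ at 43.3%, with NOD/ShiLtJ at 40.6%, DBA/2J at 36.4% and A/J at 33.2%. PWK/PhJ led at Alad with 36.9%, followed by DBA/2J at 33.5%, and 129S1/SvImJ led at Ide with 8.72%, followed by PWK/PhJ at 8.39% and C57BL/6J at 8.29%. Over all genes with such a ranking, the farthest strain was PWK/PhJ in 30.2%, NOD/ShiLtJ in 20.2%, CAST/EiJ in 16.5%, WSB/EiJ in 12.3%, A/J in 5.15%, 129S1/SvImJ in 4.65%, NZO/HlLtJ in 4.41%, DBA/2J in 3.41% and C57BL/6J in 3.14%. By Dixon's gap ratio a strain stood apart in 0 of the 4 genes and in 28.1% of all genes. With 1 map per strain, 1 strain against 8 cannot reach an exact p below 0.11, so no p-value is given for a single strain.

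Nnt (gene 18115, chr13:119335527-119409257, 73731 bp) had most of its marked bins near its high-coordinate end. That end lay in state 3 in 9 of 9 strains, in segments of 600 to 1400 bp. The unbroken marked run around it was 16000 bp in C57BL/6J (119397401-119413400) and in NOD/ShiLtJ, and 11200 bp in PWK/PhJ, the shortest. C57BL/6J, which carries the known deletion, thus had as long a marked run at this end of the gene as any other strain. Further inside, all 9 strains shared an island of state 1 with state 2 at its border, which in C57BL/6J ran from 119388801 to 119391600. The remaining low-coordinate part was mostly in state 14, with a patch of state 6 at 119378601-119379400 in C57BL/6J that recurred in 7 of the 9 strains and was missing in CAST/EiJ and WSB/EiJ.

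**Figure D1:**
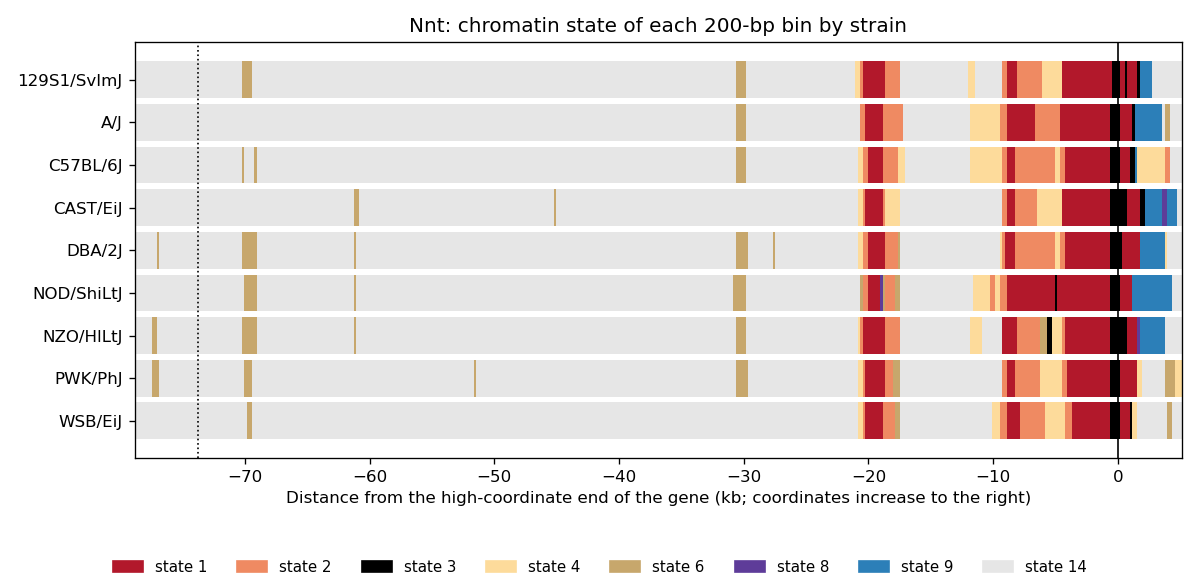
Chromatin state of each 200-bp bin of Nnt with 5 kb on each side, 1 row per strain; the x axis is the distance in kb from the high-coordinate end of the gene (solid line), and the dotted line is its other end. State 3 sits at the solid line in all 9 rows, and to the right of it C57BL/6J carries state 4 where most rows carry state 9.

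The share of Nnt outside state 14 ran from 18.8% in WSB/EiJ through a median of 23.3% to 25.5% in NOD/ShiLtJ. C57BL/6J, at 25%, was second highest, and the strains form a continuous range. C57BL/6J differed in the kind of state. It had 31 bins in state 4, and the next strain, CAST/EiJ, had 18 and the lowest, DBA/2J, 6. Within the gene the values were 20 in C57BL/6J and 18 in CAST/EiJ. In the 25 bins beyond the high-coordinate end, C57BL/6J had 11 bins of state 4 and 1 of state 9. In the same bins state 9 held 16 bins in NOD/ShiLtJ, 11 in A/J and CAST/EiJ, 10 in DBA/2J and NZO/HlLtJ, 5 in 129S1/SvImJ and 0 in PWK/PhJ and WSB/EiJ. PWK/PhJ and WSB/EiJ thus had even less state 9 there than C57BL/6J. Disagreement was 56.1% in these 25 bins and 8.81% within the gene itself. One stretch inside the gene, 119401401-119402600, was in state 1 in A/J and NOD/ShiLtJ and in state 2 in the other 7 strains. NOD/ShiLtJ had the most state 1 over the whole span, with 50 bins, and C57BL/6J and WSB/EiJ the fewest, with 31.

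Glo1 (gene 109801, chr17:30592861-30612659, 19799 bp, overlapping the pseudogene Gm8373) had the highest disagreement of the 4. Its start at 30612659 was nonetheless alike in every strain: it lay in state 3 in 9 of 9, in segments of 800 to 1800 bp that all ended at 30612800. State 3 within 1 kb of a start in all 9 strains was seen for 42.3% of the 17274 genes with a listed start. State 1 was the most frequent marked state within the gene in every strain. It took 31 bins in WSB/EiJ, 40 in C57BL/6J, 51 in DBA/2J, 52 in A/J and 53 in 129S1/SvImJ, and 46 or 47 in the other 4 strains. The variable part was the other end of the gene and its padding, where disagreement was 61.1% in the low-coordinate 25 bins, 28.3% within the gene and 39.3% beyond the start.

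**Figure D2:**
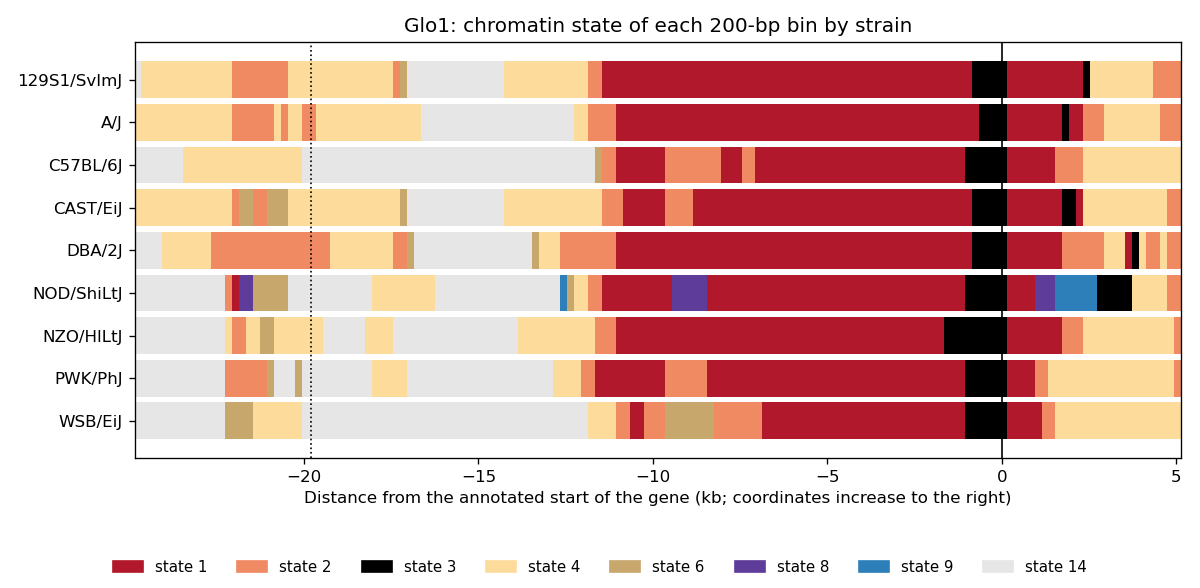
Chromatin state of each 200-bp bin of Glo1 with 5 kb on each side, 1 row per strain, by distance in kb from the annotated start (solid line); the dotted line is the other end of the gene. The black state 3 segments line up at the start in all 9 rows, and the left part differs. There 129S1/SvImJ, A/J, CAST/EiJ and DBA/2J have 1 grey state 14 stretch inside the gene, of 14, 22, 14 and 17 bins. C57BL/6J and WSB/EiJ have 1 of 42 and 41 bins that reaches past the dotted line.

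The marked share of Glo1 was 90.7% in CAST/EiJ, 90.0% in 129S1/SvImJ, 86.0% in DBA/2J and 85.3% in A/J, then 75.3% in NZO/HlLtJ, 71.3% in NOD/ShiLtJ, 68.7% in PWK/PhJ, 67.3% in C57BL/6J and 64.0% in WSB/EiJ. Both strains with the known duplication were in the upper group of 4, but 129S1/SvImJ and CAST/EiJ were higher than either. The same 4 strains shared state 4 over 30593401-30594400, close to the low-coordinate end, where the other 5 had state 14. DBA/2J had the most state 2, 37 bins against 19 in the next strain, A/J, and 5 in NOD/ShiLtJ, but within the gene it had 13 and C57BL/6J and WSB/EiJ had 12. States 8 and 9 were found in NOD/ShiLtJ, with 10 and 7 bins, and were at 0 in the other 8 strains. A/J and DBA/2J differed in 22.0% of the bins, less than the mean pair. The most alike pair was 129S1/SvImJ and CAST/EiJ at 14%, and the most unlike were 129S1/SvImJ and WSB/EiJ, and DBA/2J and WSB/EiJ, both at 55.3%.

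Beyond Glo1, the marked domain at its start ran on without a state 14 bin for different lengths. It was 72400 bp in DBA/2J and in 129S1/SvImJ and 70800 bp in A/J. It was 50000 bp in CAST/EiJ and 46600 bp in C57BL/6J, and between 21600 and 24800 bp in WSB/EiJ, PWK/PhJ, NZO/HlLtJ and NOD/ShiLtJ. Dnah8, an axonemal dynein heavy chain gene, lies 14.3 kb beyond Glo1, where the known duplication reaches. Its marked share was 71.4% in A/J and 50% in DBA/2J, and the other 7 strains lay between 13% in PWK/PhJ and 40.4% in 129S1/SvImJ. A/J was the strain farthest from the others there, at a mean disagreement of 43.8%, past Dixon's critical value. PWK/PhJ was next at 31.0%, followed by DBA/2J at 29.4%. A/J stood apart in 0.963% of all genes, and any strain in 28.1%. Dnah8 was not the only neighbour examined with a strain past that value. Among the others were Kif11 near Ide, with PWK/PhJ, and Mrps30 on the Nnt side, with NOD/ShiLtJ. The surplus in marked share at Dnah8 was in state 13, which held 49.2% of Dnah8 in A/J, 29.3% in DBA/2J and 1.78% to 21.6% in the others. States 1 to 12 together held 22.2% in A/J, 21.9% in 129S1/SvImJ and 20.8% in DBA/2J, and 10.6% to 20.2% in the other 6. The further neighbour Glp1r, the receptor for glucagon-like peptide 1, had 35.7% in A/J and 29.5% in DBA/2J within a range of 19.2% to 43.3%. On the other side lies Btbd9, 10.2 kb away, where A/J had 24.1%, 129S1/SvImJ 23.3%, CAST/EiJ 21.3%, NOD/ShiLtJ 19.9% and DBA/2J 19.6%.

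**Figure D3:**
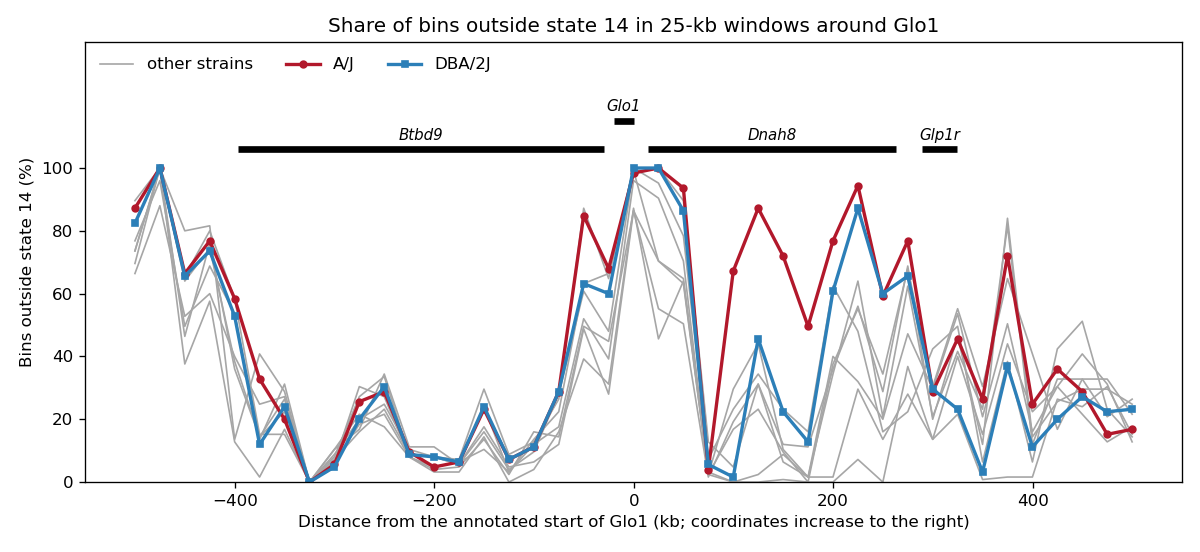
Share of bins outside state 14 (y axis, percent) in windows of 25 kb over 500 kb on each side of the start of Glo1 (x axis, kb), with A/J and DBA/2J in colour, the other 7 strains in grey, and genes as black bars. Over Dnah8 the A/J line lies above all others in several windows. DBA/2J joins it above the grey lines in 30725001-30750000, near the middle of that gene, and over 30825001-30875000, at its right end.

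In the 41 windows of 25 kb around Glo1, both A/J and DBA/2J were above all other strains in 4, or 9.76%. Over the genome this held for 0.893% of the 97527 windows in which strains differed. The 41 windows were not limited to such windows. Of these 4 windows, 3 lay in Dnah8 and 1, 30525001-30550000, in Btbd9 on the other side. In 30825001-30850000 the marked share was 94.4% in A/J and 87.2% in DBA/2J, and 7.20% to 64.0% in the others. In 30525001-30550000 both had 28.8% and NOD/ShiLtJ had 28.0%, a difference of 1 bin of 125. Windows next to each other share domains and are not independent, and A/J also had the highest marked share over the genome. The windows were drawn after the maps of the genes had been seen. Whether the duplication had a part in these values was not tested.

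Alad (gene 17025, chr4:62505984-62520063, 14080 bp) had no state 14 bin in any strain, and its unbroken marked domain was 31600 to 33800 bp long. Its padding takes in part of the neighbour Hdhd3 and, upstream of the start, the whole of Pole3, so that domain spans several genes. The variation at Alad was therefore wholly among marked states. State 1 held 113 of 122 bins (22.6 kb) in DBA/2J, a median of 81, and 52 bins (10.4 kb) in PWK/PhJ. DBA/2J, the strain with the known duplication, was thus at one extreme for state 1 and PWK/PhJ at the other, with the other 7 strains spread between them. Within the gene the lead was small, at 70 of 72 bins in DBA/2J, 67 in NOD/ShiLtJ, 66 in NZO/HlLtJ and 65 in A/J, and 28 in PWK/PhJ. In the 25 bins upstream it was 18 in DBA/2J against 8 to 12 in the others. DBA/2J had 0 bins in states 2, 4 and 9. NOD/ShiLtJ also had 0 bins in states 2 and 4, and A/J and NZO/HlLtJ had 0 in state 4. State 9 held 12 bins in 5 strains, 10 in C57BL/6J, 5 in NOD/ShiLtJ and 4 in A/J, all in the 25 bins upstream of the start.

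**Figure D4:**
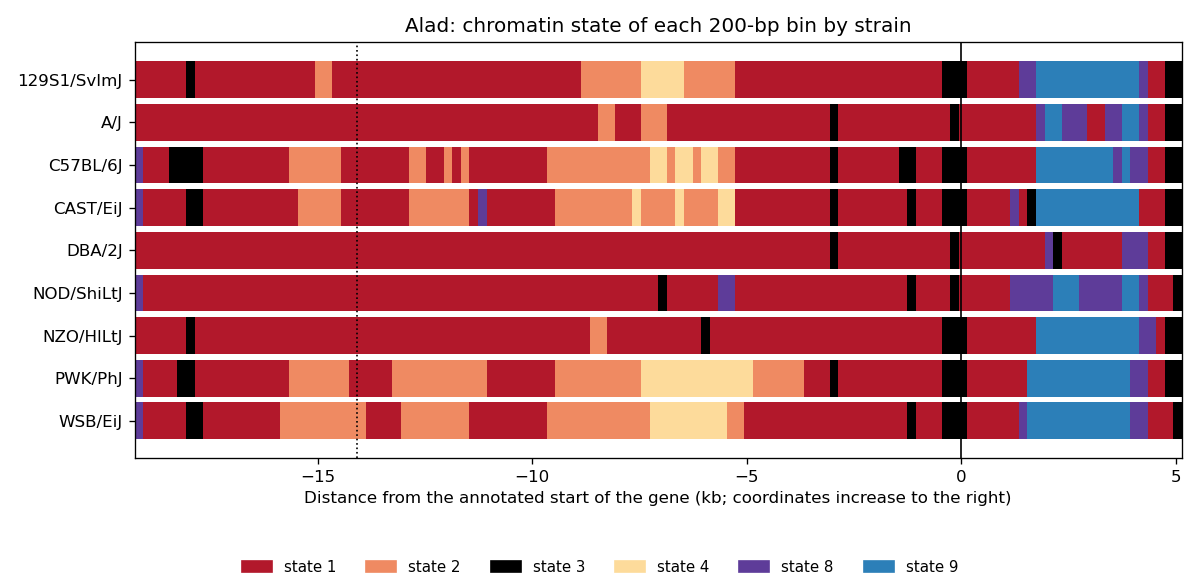
Chromatin state of each 200-bp bin of Alad with 5 kb on each side, 1 row per strain, by distance in kb from the annotated start (solid line); the dotted line is the other end of the gene. DBA/2J is nearly all state 1, PWK/PhJ, WSB/EiJ, CAST/EiJ and C57BL/6J carry blocks of states 2 and 4 inside the gene, and state 9 fills the right margin in most rows but is missing in DBA/2J.

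Alad has more than 1 listed start, and the 9 maps fell into 2 forms at the outer one. In 6 strains a state 3 segment of 600 bp, 62519601-62520200, held the listed start at 62520063. In A/J, DBA/2J and NOD/ShiLtJ that position was in state 1, and state 3 was a single bin of 200 bp, 62519801-62520000, which overlaps the CG-rich sequence printed for Alad. This bin was in state 3 in all 9 strains. The pair most alike over the whole span was A/J and DBA/2J, which differed in 12.3% of bins, and the most unlike pair was NOD/ShiLtJ and PWK/PhJ at 53.3%. C57BL/6J and DBA/2J differed in 42.6%. PWK/PhJ had a run of 1400 bp, 62515001-62516400, in states 2 and 4 where all others had state 1. Bins in a state of its own made up 7.38% of Alad in PWK/PhJ against 2.46% in the next strain, WSB/EiJ, and PWK/PhJ averaged 4.08% of such bins over all genes.

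Ide (gene 15925, chr19:37268743-37334544, 65802 bp) had the lowest marked share and the lowest disagreement of the 4 when all bins were counted; in marked bins Alad was lower. Its listed start at 37334544 lay in state 14 in 9 of 9 strains, inside state 14 runs of 5200 bp in CAST/EiJ to 17200 bp in DBA/2J, and no state 3 bin lay within 1 kb in any strain. State 6 lay within 1 kb in A/J and CAST/EiJ, at 37335401-37335600 and 37332801-37333600. Of all genes with a listed start, 45.9% had no state 3 within 1 kb of any start in any strain. The sequence printed for Ide, at its only listed start, is the one with 0 CG dinucleotides. Whether Ide has a further start that is not listed could not be checked, so these values describe the listed start alone. State 3 occurred in 1 bin of the padded span, 37264001-37264200, in 7 strains, and in 0 bins in CAST/EiJ and PWK/PhJ. That bin is 70344 bp from the start, in the padding beyond the other end, where the non-coding gene 4931408D14Rik ends. How reads that match several places were treated is not given in the sources used here.

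**Figure D5:**
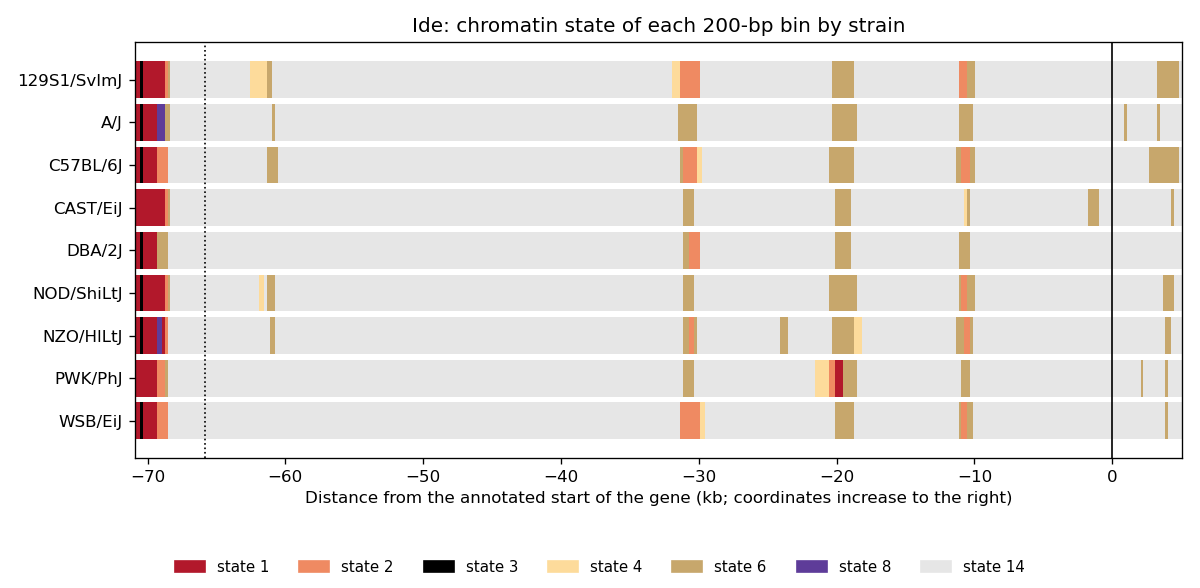
Chromatin state of each 200-bp bin of Ide with 5 kb on each side, 1 row per strain, by distance in kb from the annotated start (solid line); the dotted line is the other end of the gene. State 14 fills most of each row, the start has no state 3, and 3 marked islands recur at the same places in all 9 rows, in state 6 in some and with states 1, 2 or 4 in others.

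Inside Ide, 3 islands recurred in all 9 strains. In C57BL/6J they were at 37303201-37304800, 37314001-37315800 and 37323201-37324600, in states 6, 2 and 4. State 6 was the leading marked state in most strains, with 29 bins in C57BL/6J, a median of 22 and 11 in WSB/EiJ. C57BL/6J also had the most state 6 beyond the start, with 11 of 25 bins, followed by 129S1/SvImJ with 8 and NOD/ShiLtJ with 4, and DBA/2J had 0. The marked share was 13.9% in 129S1/SvImJ and 13.4% in C57BL/6J, with a median of 9.74% in A/J and a minimum of 7.37% in DBA/2J. The first and second strain differ by 2 bins of 380. PWK/PhJ had state 4 over 37313001-37314000, at the border of the middle island, where the others had state 14. In the surrounding windows of 25 kb, C57BL/6J was above all other strains in 6 of 41 (14.6%), and in 3 of the 6 by 1 bin of 125. Around Nnt it was in 3 of 41 (7.32%). Over the genome this held for 4.00% of the windows in which strains differed. Around Alad, DBA/2J was above all others in 2 of 41 windows (4.88%), beside 2.94% of the genome windows in which strains differed.

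Each gene was then set beside genes of related function, in lists chosen with earlier results of these data known. By the factor of 1.5, 21.8% of all genes were high and 30.0% low, and the counts of each list include the member itself. Among 14 mitochondrial NADPH and antioxidant genes, the median disagreement was 25.4%, with 3 genes high and 4 low by this factor. Nnt ranked 12 of 14 from the top, between the peroxiredoxin gene Prdx5 at 44.9% and the folate enzyme gene Mthfd2l at 3.53%. Among 12 genes of methylglyoxal and aldehyde clearance the median was 25.2%, with 4 high and 2 low. Glo1 came second after the aldehyde dehydrogenase gene Aldh9a1 at 40.1%, and the aldose reductase gene Akr1b3 was lowest at 11.4%. Hagh, glyoxalase 2, which acts on the product of glyoxalase 1, was at 29.6%.

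Among 11 haem synthesis genes the median was 26.3%, with 3 high and 2 low, beside the same shares of 21.8% and 30.0% of all genes. Alad ranked below Cpox, a later enzyme of the pathway, which was highest at 49.2%. The erythroid gene Alas2, on chromosome X, was lowest at 9.26%. Among 12 genes of insulin and peptide degradation or insulin response, the median was 20.9%, with 2 high and 2 low. Ide was second lowest, above the mitochondrial peptidase gene Pitrm1 at 5.16%, and Ceacam1, which takes part in insulin clearance, was highest at 38.7%. Of the 10 genes of that list with a listed start, Ide was the one with state 3 near its start in 0 of 9 strains, while Mme and Ceacam1 had it in 7, Pitrm1 in 8 and the other 6 in all 9.

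The genes whose 36 pair values followed those of each member most closely were found on other chromosomes, and these correlations describe pairs that share strains. They were Pbx3 (r = 0.816), Aen (0.801) and Bend7 (0.747) for Nnt, each with NOD/ShiLtJ as the farthest strain. For Glo1 they were Gm15319 (0.738), 1700034E13Rik (0.737) and Mga (0.697), each with WSB/EiJ farthest. Nup43 (0.819), Gm5617 (0.809) and Wdr74 (0.790) were closest to Alad, with NOD/ShiLtJ farthest in the first and PWK/PhJ in the others. Jak3 (0.755), Gabra3 (0.752) and Olfr1008 (0.751) were closest to Ide, with C57BL/6J, 129S1/SvImJ and PWK/PhJ farthest. Each was picked from 19899 to 20486 genes, and no test was made.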

How the data were processed

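The deposited files hold 1 chromatin state segmentation per strain, made by the authors from that strain's libraries. Their values are a category, the state number, and not a count, signal or score, per the file headers. The submitters' processing notes name the build mm10 (GRCm38), FastQC 0.11.5 and MACS 1.4.2 without saying what each was used for; the aligner, the segmentation tool and the depth are not given in the sources used here. The libraries were grouped by the strain in their labels. The intervals, which tile each chromosome, were written as 200-bp bins.

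Gene spans, starts and sequences came from RefSeq tables of GRCm38.p6; strand and starts were found for 3 of the 4 genes. The members and gene lists were chosen with earlier results of these data known. Besides the members, genes were named by rule: the 3 nearest protein-coding genes on each side, the highest and lowest of each list, and the 3 most alike in the pair values with at least 50 bins. Others were chosen after their values were seen: Hagh and the genes of the Ide list with state 3 at a start in fewer than 9 strains. A difference from the flanks was tested with an exact sign-flip permutation test over 9 strains; adjustment over the 4 genes had been planned, and adjustment over all genes was added after seeing the data and is the one printed. The values of 1 gene of the haem list are not reported here. Runs shared by strains are of at least 1.0 kb. The measures were tested on simulated maps in which bins changed independently of their neighbours. Real maps change in runs, so this checks the calculation and not how often the measures call genes in these data. Python 3.11.15, numpy 2.4.6 and pandas 2.3.3 were used.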

Additional observations from a re-analysis of the deposited data

Results flagged for a closer look

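Of 44 sets of 9 strain values examined at the 4 genes, 7 had a strain whose gap to the next strain was past Dixon's critical value. At Nnt, C57BL/6J had 31 bins in state 4 against 18 in the next strain, and CAST/EiJ had 2 bins in state 8 against 1. At Glo1, DBA/2J had 37 bins in state 2 against 19, and NOD/ShiLtJ had 10 bins in state 8 and 7 in state 9 where the other 8 strains had 0. At Alad, NOD/ShiLtJ had 14 bins in state 8 against 7, and PWK/PhJ had 7.38% of its bins in a state of its own against 2.46%. The gaps of C57BL/6J at Nnt and DBA/2J at Glo1 come mostly from the padding: within the gene the values were 20 against 18 and 13 against 12. The limit is one that chance passes in about 1 of 20 sets of independent values, but a set with 0 in 8 strains passes it by construction, and mean disagreement passed it in 28.1% of all genes. These 7 sets are therefore not shown to be more than other genes would give.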

How the results depend on the processing

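Of 72 values recomputed under other settings, 53 kept their call or moved by less than the SD over strains. Some of the 53 were not able to move. The spans hold no state 13 bin, so merging states 13 and 14 leaves disagreement and marked share as they were. Alad holds no state 14 bin, so its marked bins are all its bins. Adjustment over all genes changes the p-value and not the difference. Pairwise disagreement moved at Nnt to 8.81% without padding, 16.4% with 20 kb, 37.9% in marked bins and 8.38% with a match within 1 bin. At Glo1 it moved to 28.3% without padding and 29.3% with a match within 1 bin. At Alad it moved to 20.5% with 20 kb, 22.5% within 1 bin and 26.2% in bins of 1000 bp. At Ide it moved to 5.68% without padding, 13.9% with 20 kb, 34.7% in marked bins and 4.70% within 1 bin. The marked share moved at Alad to 59.9% with 20 kb, and at Ide to 7.04% without padding and 19.7% with 20 kb. The difference of Nnt from its flanks was -7.75 points without padding (exact permutation p = 0.012), and it turned to 5.47 with flanks of 200 kb and 6.95 with states 13 and 14 merged. The causes of these moves were not tested.

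Leaving out 1 strain at a time gave 108 values, and 1 changed its call. The Nnt difference from its flanks without PWK/PhJ was -6.36 points (exact permutation p = 0.023 over 8 strains), and its range was -6.36 to -3.52. Only this Nnt difference was able to change its call. Disagreement and marked share cannot move by their SD when 1 of 9 strains is dropped. Glo1, Alad and Ide differed from their flanks in the same direction in all 9 strains, so any 8 of them give the smallest p that 8 strains allow. No paired analysis was possible because the libraries of a strain are combined in 1 map and the maps carry no replicate numbers. That limit concerns pairing libraries by replicate number. The test against the flanks is paired in another sense, since it compares the span with its flanks within each strain. The depth is unknown, so a state that needs more reads to be seen cannot be told from one that is absent.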
